A study of Mus musculus with 6 samples.

Results

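The Jun peaks around the microRNA genes Mir29a and Mir29b-1 formed 1 of the dense groups of Jun binding in rib chondrocytes of newborn mice. The window examined ran from 30900001 to 31180000 on chromosome 6 of the mouse genome build mm9, and it was chosen by the density of its peaks. A deposited peak belonged to it when its midpoint lay inside. This gave 83 of the 99162 listed Jun peaks (0.0837%), or 1.54% of the 5390 peaks of chromosome 6. The number and closeness of these peaks chose the window, so both are given as a description with no test.

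The peaks came from ChIP-seq, in which DNA bound to a protein is precipitated with an antibody and sequenced. A Jun library and a library of input DNA were made from rib chondrocytes of untreated wild-type ICR mice at postnatal day 1, from cells separated by enzyme digestion, and the 1 Jun list has no replicate. The series also has 4 RNA-seq libraries of sorted rib chondrocytes of Swiss Webster mice that carry Col10a1mCherry, at stage E18.5 (1 library), postnatal day 1 (2 libraries) and postnatal day 3 (1 library), which were not analysed here. Only the list of intervals was used, without expression values, so neither the chondrocyte label nor the level of the microRNAs was checked.

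MicroRNAs are short RNAs cut from hairpin transcripts. They guide Argonaute proteins to messenger RNAs that pair with their seed, bases 2 to 8, and lower the output of those messengers. The miR-29 family is known for pairing with messengers of collagens and other matrix proteins, the main products of chondrocytes. Jun is a subunit of AP-1, a dimeric transcription factor that responds to growth and stress signals, and the study asked how AP-1 acts alongside Sox9, the main transcription factor of cartilage, when chondrocytes enlarge.

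The products of the hairpins are shown because they tie the locus to the collagen messengers. The sequences are those of RefSeq on GRCm38.p6, where all 4 family genes (Mir29a, Mir29b-1, Mir29b-2 and Mir29c) had an entry. Capitals mark the seed of each mature 3p arm, written 5′ to 3′. Mir29a and Mir29b-1 lie on the minus strand of chromosome 6, and Mir29b-2 and Mir29c on the plus strand of chromosome 1.
miR-29a-3p (Mir29a): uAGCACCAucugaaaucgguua
miR-29b-3p (Mir29b-1 and Mir29b-2): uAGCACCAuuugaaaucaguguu
miR-29c-3p (Mir29c): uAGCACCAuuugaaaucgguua

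All 3 mature sequences carry the seed AGCACCA, whose pairing partner in a messenger is UGGUGCU. Among 1738 mature entries of the RefSeq table, 4 had this seed, and they were the 3p arms of the 4 family genes. Outside the seed, miR-29b-3p differed from miR-29a-3p at 4 of 22 shared positions (C10U, G18A, U21G and A22U, counted from 1 at the 5′ end, with the miR-29a-3p base first) and was 1 base longer. miR-29c-3p differed from miR-29a-3p by C10U alone. The 2 genes of the chromosome 6 locus thus yield products with a common seed and different 3′ parts.

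Each is cut from a hairpin of its own, shown here with the 3p arm in capitals.
Mir29a hairpin: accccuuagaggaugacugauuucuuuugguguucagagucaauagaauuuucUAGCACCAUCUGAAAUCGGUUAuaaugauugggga
Mir29b-1 hairpin: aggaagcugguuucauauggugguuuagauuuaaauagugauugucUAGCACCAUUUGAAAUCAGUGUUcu

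The 5p arms did not share a seed, with CUGAUUU in miR-29a-5p and CUGGUUU in miR-29b-1-5p. In GRCm38.p6 the genes follow each other in the order Klf14 (a zinc finger transcription factor), Gm40359 (a long noncoding RNA), Mir29a, Mir29b-1 and Lncpint (a long noncoding RNA). That table belongs to a later build than the peaks, so it was used for names, strand and order. In which of these genes a given mm9 peak lies was not determined.

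Of the 83 peaks, 72 (86.7%) were joined into 1 group when neighbours with centres no more than 10 kb apart were chained. The group covered 99.4 kb, from 30983168 to 31082585, which is 35.5% of the window. Its peaks lay at 724 per Mb, 19.6 times the 36.9 per Mb between the first and last peak of chromosome 6. The peaks themselves covered 12846 bp, or 12.9% of the group.

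The remaining 11 peaks were scattered at both ends of the window, 3 below and 8 above the group. The lowest member (30907978 to 30908099, 122 bp) lay 11.7 kb above the nearest peak outside the window, of 100 bp from 30896270. The highest member (31168615 to 31168738, 124 bp) lay 32.4 kb below the nearest peak beyond the other edge, of 95 bp from 31201008. The longest gap between members was 53.7 kb, after the peak at 30908558, followed by 35.2 kb after 31105940 and 20.8 kb after 30962424. All 3 exceeded the 10 kb used for chaining, so they lay outside the dense group by construction.

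Around the group chromosome 6 was sparser, which is partly by construction, because the window was chosen for its density. The window held 83 peaks, against 20 and 25 in windows of the same 280 kb on its higher and lower side. Both of these were still above the median of 10 peaks among fixed windows of 280 kb that held a peak. The nearest other group of 10 or more peaks lay 281 kb below and held 15 peaks (30674871 to 30702389). In the opposite direction the nearest was 4.12 Mb away and held 12 (35203167 to 35223486). The 158 peaks between it and the dense group lay at 38.3 per Mb in 81 chained groups, none with over 7 peaks.

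By the number of peaks the group was the fullest of the 2090 chained groups on chromosome 6. The next 2 held 54 peaks each (37268033 to 37403312 and 52100733 to 52184019). In the whole list it was 8th of 38356 groups by peak number. When the genome was divided into windows of 280 kb from position 1 of each chromosome, 7114 held a peak, with a median of 10 peaks, and the 83 peaks here would rank 14th. That placing favours the present window, whose edges were set around its peaks.

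The peaks were not centred on the microRNA genes. The position that came with the rule of the window places both near 31013000, a rounded value that the peak list itself does not hold, so distances carry an uncertainty of about 1 kb. Of the 72 peaks of the group, 56 lay at higher coordinates, reaching 69.5 kb, and 16 at lower coordinates, reaching 29.8 kb. Both hairpins are on the minus strand in GRCm38.p6, so the longer side is the 5′ side of the microRNAs if the strand is the same in mm9.

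**Figure D1:**
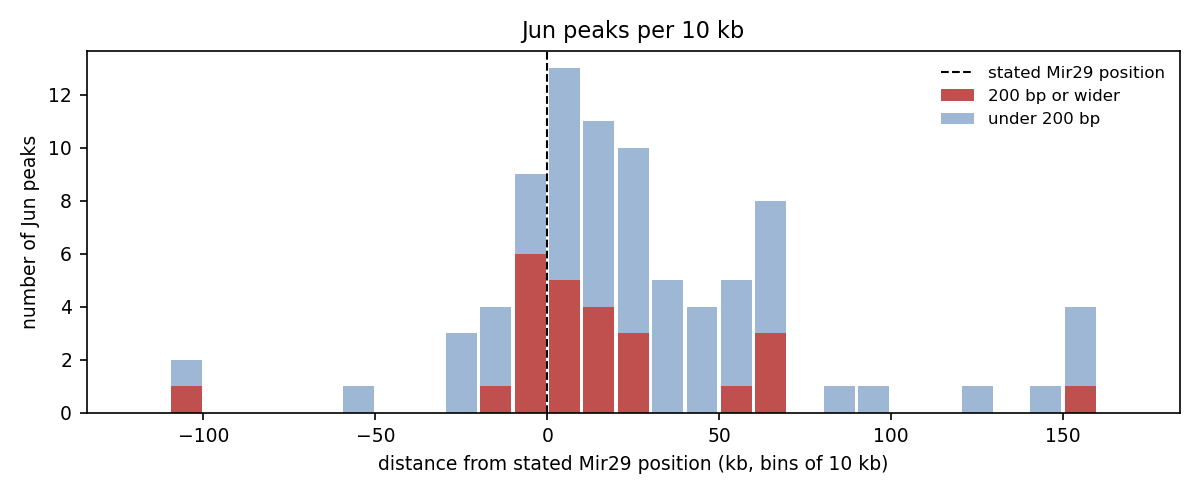
Number of Jun peaks in bins of 10 kb (vertical axis) against distance from the stated position of Mir29a and Mir29b-1 in kb on mm9 (horizontal axis), split into peaks of 200 bp or wider and narrower ones. The fullest bin, from 0 to 10 kb, held 13 peaks, and the 4 fullest bins lay between -10 and 30 kb.

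In steps of 10 kb, the 3 bins from 0 to 30 kb at higher coordinates held 13, 11 and 10 peaks, and the bin from 0 to 10 kb on the lower side held 9. A second, smaller rise of 8 peaks lay 60 to 70 kb above the microRNAs, beyond 3 bins of 5, 4 and 5. Peaks were present in 17 of the 29 bins. The fullest stretch of 10 kb held 15 peaks (31018328 to 31028510), whose centres lay 5.53 to 15.3 kb above the stated position. Of all 99162 stretches of 10 kb that start at a peak of the list, 129 (0.13%) held at least as many, the most being 17 and the median 2. This stretch was picked as the fullest of a window chosen for its density. A small share follows from that choice, so nothing is read from it.

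Next to the microRNAs the peaks on both sides were unlike in width. The nearest at higher coordinates was a peak of 51 bp (31013266 to 31013316), with its edge 0.266 kb from the stated position. It was followed by peaks of 64 bp (from 31014865) and 364 bp (from 31015118), and then by peaks of 380, 112 and 382 bp. The nearest at lower coordinates was a peak of 177 bp (31011829 to 31012005), 0.995 kb away, with peaks of 301 bp (from 31010172) and 280 bp (from 31009701) beyond it. Whether any of these intervals overlaps a hairpin was not determined.

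Within the group, neighbouring peaks were close. The median distance between centres was 853 bp over 71 neighbouring pairs, with the central 50% between 469 and 1592 bp. The closest pair was 101 bp apart and the longest gap within the group was 6.52 kb, after the peak at 30989518. Over the whole window 42 of 82 distances (51.2%) were at most 1000 bp, against 23.3% of all listed peaks with a next peak. Distances of 300 to 500 bp made up 20.5% of those that follow a member, against 7.62% in the whole list. The window was chosen for such closeness, so nothing is read from these shares.

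When peaks separated by no more than 1000 bp were merged, the 83 peaks gave 39 regions, of which 22 held 1 peak. The other 17 regions held 61 peaks, 73.5% of the members, against 41.8% of all peaks in the list. In the 24 other chained groups of 50 or more peaks, 1336 of 1707 peaks were merged with another. The fullest regions held 7 peaks each. One spanned 3178 bp (31027191 to 31030368) about 15.6 kb above the stated position, with widths of 9, 298, 312, 361, 464, 78 and 95 bp in order along the chromosome. The other spanned 3616 bp (31036965 to 31040580), with widths of 24, 111, 29, 139, 58, 242 and 300 bp. Both regions thus held intervals under 50 bp and intervals of 200 bp or more. In the whole list, 218 of 74020 merged regions held at least 7 peaks.

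Neighbouring intervals overlapped 5 times among the members. The longest overlap was 146 bp, between the peaks from 31027544 and 31027696. A further overlap of 71 bp lay between the peaks from 31007875 and 31008079, and the remaining 3 measured 2, 7 and 10 bp. Such intervals were kept as separate peaks, as listed.

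**Figure D2:**
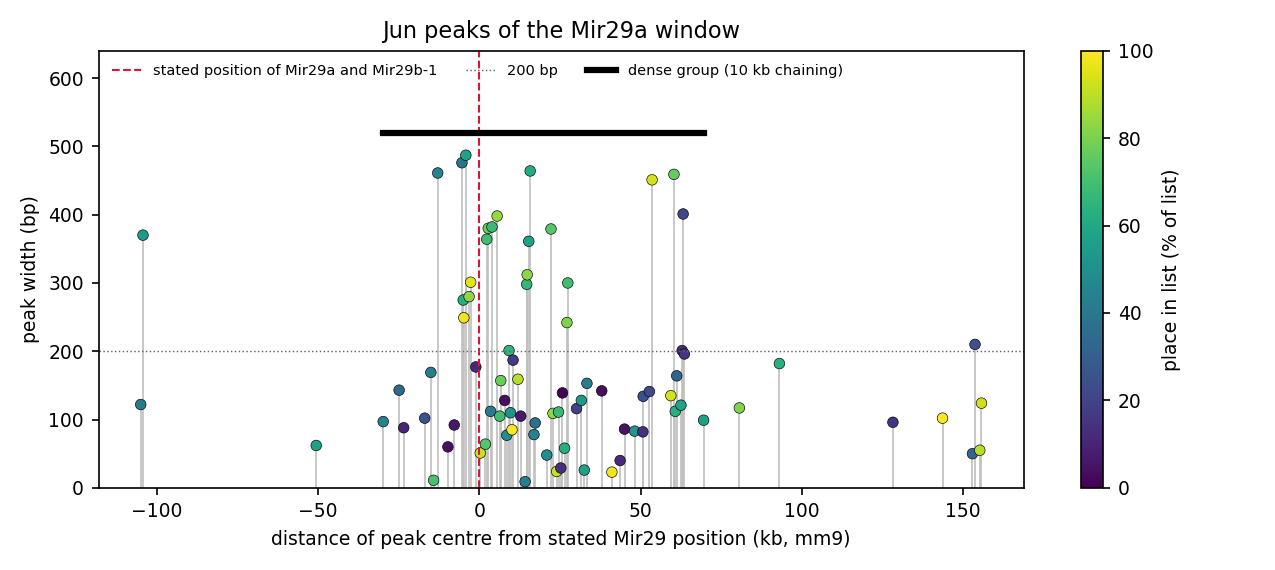
Width of each of the 83 Jun peaks in bp (vertical axis) against the distance of its centre from the stated position of Mir29a and Mir29b-1 in kb on mm9 (horizontal axis), coloured by place in the deposited list in percent. The black bar marks the dense group of 72 peaks, and the dotted line marks 200 bp, above which peaks stand mostly between -15 and 30 kb and near 60 kb.

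Widths and places in the list did not enter the rule that chose the window. With 1 list they are still given without a test, and neighbouring peaks are not independent. The widths ran from 9 to 487 bp, with a median of 128 bp (95% order-statistic interval 110 to 157) and the central 50% between 87 and 245.5 bp. In the whole list the median was 114 bp and the central 50% lay between 88 and 151 bp. The lower quartile was thus nearly the same as in the whole list, and the upper quartile was higher.

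The shares of wide peaks were higher than in the list. Of the members, 25 (30.1%, exact 95% interval 20.5 to 41.2) were 200 bp or wider, against 14.0% of all listed peaks. At 400 bp or more the numbers were 7 members (8.43%, 3.46 to 16.6) and 3.10% of the list. Very narrow peaks, under 50 bp, were 8 members (9.64%, 4.25 to 18.1) and 6.30% of the list. All 7 peaks of 400 bp or more and all 8 under 50 bp belonged to the dense group, which held 86.7% of the members. Nothing is read from these counts. The intervals given cover counting error only and treat neighbouring peaks as independent, so they test none of these shares.

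**Figure D3:**
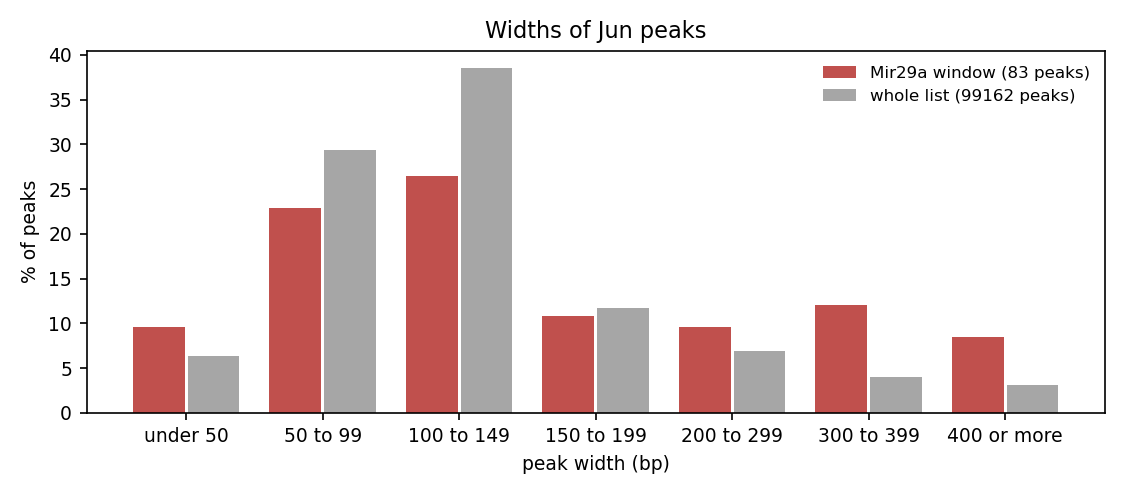
Percent of peaks (vertical axis) in 7 classes of peak width in bp (horizontal axis), for the 83 peaks of the Mir29a window and for all 99162 listed peaks. The window is below the list in the 3 classes from 50 to under 200 bp and above it in the 3 classes from 200 bp and in the class under 50 bp.

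The widest member was the 487 bp peak from 31008584 to 31009070, 4.17 kb below the stated position. The next was 476 bp wide (31007376 to 31007851) and lay 5.39 kb below it. A peak of 464 bp (31028547 to 31029010) lay 15.8 kb above the microRNAs and one of 461 bp (30999885 to 31000345) 12.9 kb below. The fifth, of 459 bp (31073111 to 31073569), belonged to the smaller rise and lay 60.3 kb above. The widest peaks were therefore spread along the group and not gathered at 1 place.

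The nearest 5 kb on either side of the microRNAs held 12 peaks, of which 8 were 200 bp or wider. The stated position is uncertain by about 1 kb, so these counts could change. Within 10 kb the count was 11 of 22, within 20 kb 16 of 37 and within 30 kb 19 of 50. Such peaks made up 14.0% of the whole list and 27.8% of the 24 other chained groups of 50 or more peaks. The differences were not tested. By side of the dense group, wide peaks were 16 of 56 at higher coordinates and 7 of 16 at lower coordinates. The lower side owed 6 of its 7 to a single run, most of which also lay within 5 kb of the microRNAs.

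That run was the longest of neighbouring wide peaks in the window. Its 6 peaks, from 31007376 to 31010472, measured 476, 275, 249, 487, 280 and 301 bp with no narrower peak between them. They covered 1997 bp (64.5%) of its 3097 bp, and the run ended 2.53 kb below the stated position. The places of these peaks in the list lay between 38.5% and 97.4%. In all, 18 of the 25 wide members stood directly beside another wide one. Runs of wide peaks were not counted in the whole list or in other groups, so nothing particular to this locus is read from them.

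Wide peaks were mostly peaks with close neighbours, as were most narrower members. Merging used gaps between the edges of peaks, which by itself favours the joining of wider ones. Of the 61 members merged with another within 1000 bp, 24 (39.3%) were 200 bp or wider, against 1 of the 22 lone ones. In the whole list the shares were 20.2% of joined and 9.63% of lone peaks. In the 24 other chained groups of 50 or more peaks they were 31.1% and 16.2%. Where the next centre was within 1000 bp, it belonged to a wide peak for 10 of 16 wide members and for 10 of 26 narrower ones. Over all peaks those shares were 38.2% and 17.6%, and in the other groups of 50 or more they were 43.0% and 25.1%. The same order of the pairs of values was thus seen in the window, in those groups and in the list. The differences between these sets were not tested.

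The deposited list is not in genomic order and its order is not explained, so a place is given as a percent of the list from its top and is not read as strength. The members were spread over the list. Their median place was 56.3% (95% order-statistic interval 43.5 to 63.5), with the central 50% between 25.2% and 74.6%. The first 10% of the list held 7 members (8.43%, exact interval 3.46 to 16.6), against 10.0% of all peaks by construction. The last 50% held 46 (55.4%), against 50.0%. Both shares were near those of the list.

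The member earliest in the list was a peak of 139 bp from 31038709 to 31038847, at place 770 of 99162 and 25.8 kb above the stated position. The next were peaks of 142 bp (from 31050882, place 3569), 128 bp (from 31020808, place 3591), 60 bp (from 31003238, place 4107) and 86 bp (from 31057972, place 4542). They stood between 9.73 kb below and 45.0 kb above the microRNAs. The latest were peaks of 85 bp (from 31023088, place 98637), 102 bp (from 31156542, place 98400) and 23 bp (from 31054086, place 97167). The earliest and the latest member were 15.6 kb apart.

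None of the 7 members in the first 10% of the list reached 200 bp, and 4.65% of all peaks there did. The median place of wide members was 67.7% and that of narrower members 43.9%. Of the 25 wide members, 20 were in the last 50% of the list, or 80.0%, against 67.6% of wide peaks in the list. Within the last 50%, 20 of 46 members were wide (43.5%, exact interval 28.9 to 58.9), against 34.6% in the other groups of 50 or more peaks and 19.0% of all peaks. Within the first 50% the share was 5 of 37 (13.5%, 4.54 to 28.8), against 18.0% in those groups and 9.10% of all peaks. The window, unlike those groups, includes scattered peaks outside its chained group. In the dense group alone, 19 of 39 (48.7%) were wide in the last 50% and 4 of 33 (12.1%) in the first 50%. The larger share of wide peaks in the window thus came mainly from the later part of the list.

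**Figure D4:**
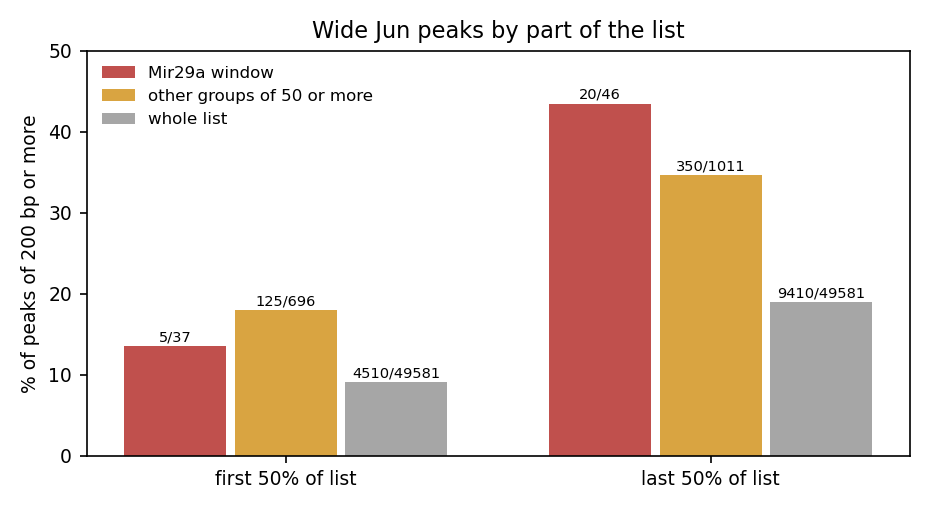
Percent of Jun peaks of 200 bp or more (vertical axis) in the first and last 50% of the deposited list, for the Mir29a window, for the 24 other chained groups of 50 or more peaks and for the whole list. Fractions above the bars give wide peaks over all peaks of the set, and the window is at 13.5% in the first and 43.5% in the last 50%. The window includes peaks outside its dense group.

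Across the window, place and width had a Spearman's rho of 0.15 over 83 peaks of 1 library, against 0.13 over the whole list and 0.14 over the peaks of the other groups of 50 or more. The window, unlike those groups, includes peaks outside its chained group. These are descriptions of 1 list.

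Set beside the 24 other groups of 50 or more peaks, the Mir29a group lay inside their range in all 15 measures compared. Its 7.24 peaks per 10 kb ranked 10th of the 25 groups, with the others between 3.99 and 9.29. Its median width of 134.5 bp ranked 7th, with the others between 101 and 187 bp, and its share of peaks of 200 bp or more, 31.9%, was likewise 7th, with the others between 12.4% and 43.6%. Its share of peaks of 400 bp or more (9.72%) was 13th and its median spacing 18th from the longest. Wide peaks were thus about as frequent in this group as in the other large groups, where they made up 27.8% of 1707 peaks.

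**Figure D5:**
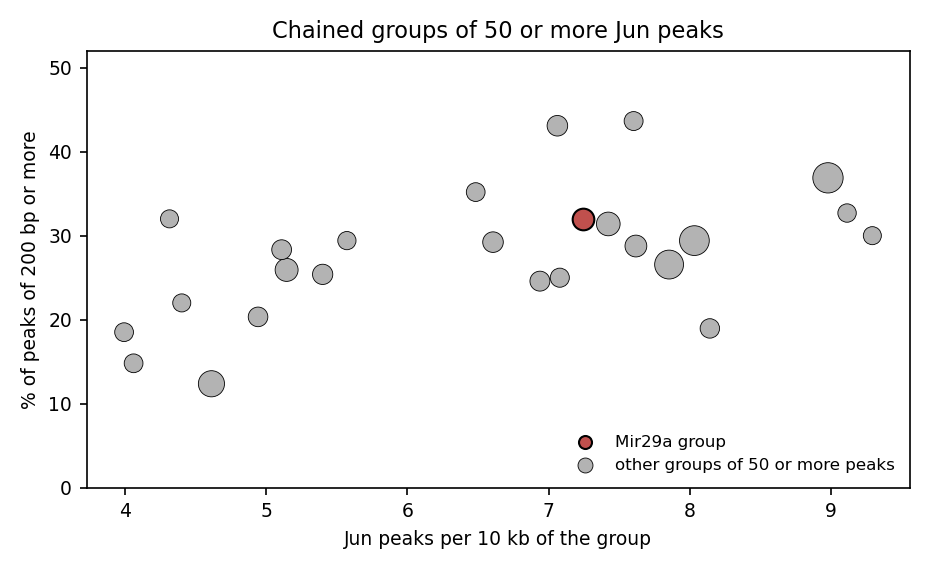
Percent of peaks of 200 bp or more (vertical axis) against Jun peaks per 10 kb (horizontal axis) for the 25 chained groups of 50 or more peaks, with symbol area proportional to the number of peaks. The Mir29a group, at 7.24 peaks per 10 kb and 31.9%, lies among the others.

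The groups next to it by peak number held 73 peaks on chromosome 7 (86198124 to 86293937) and 65 each on chromosomes 2 (77336134 to 77434524) and 1 (71623958 to 71715992). All 4 extended over 92.0 to 99.4 kb. Shares of wide peaks were 31.9% in the Mir29a group and 28.8%, 29.2% and 43.1% in the groups on chromosomes 7, 2 and 1. The median place in the list was 54.8% for the Mir29a group, 62.8% for that on chromosome 7, 77.6% for that on chromosome 2 and 32.2% for that on chromosome 1. By share of wide peaks the 4 groups were alike except for that on chromosome 1, and by place in the list they were spread. Median widths were 134.5 bp in the Mir29a group and 145, 123 and 161 bp in those on chromosomes 7, 2 and 1. None of these differences was tested.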

How the data were processed

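The authors deposited the Jun peaks as coordinates (unit: other, start and end in bp), on mm9 per the submitters' processing notes. The list has no header, score, height or p-value. The aligner, the peak caller and the use of the input were not given in the sources used here. Although an FDR tag is part of what the list is called, nothing explains its level or meaning, so no threshold is given. No read depth is known. The list was taken as that of the Jun library, the only sample with a Jun antibody.

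Positions are printed counted from 1. The midpoint placed a peak. Groups were chained at 10 kb between centres, and regions merged at gaps of up to 1000 bp. Both steps were tested on simulated data with known groups. Shares have exact (Clopper-Pearson) 95% binomial intervals, and medians have order-statistic intervals. Neighbouring peaks are not independent, so both are too narrow. Python 3.11.15, pandas 2.3.3, numpy 2.4.6, scipy 1.17.1 and matplotlib 3.10.9 were used.

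The window, the named items and the alternatives were chosen with earlier results of these data known. Named peaks were the 5 widest, the 3 nearest the microRNAs on each side, the 5 earliest and 3 latest in the list, those at the edges of the window and the group, the fullest merged regions and the 3 longest gaps. AP-1 motifs were not searched, because mm9 sequence was not used here and Mir29a and Mir29b-1 were not among the promoters used.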

Additional observations from a re-analysis of the deposited data

How the results depend on the processing

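Of 32 alternatives, 21 left a value within its range (1.5 times for counts, the group's extent and the rank of the window; the 95% interval for the others) and 11 moved it. The 83 peaks of the window became 39 regions after merging within 1000 bp and, by construction, 37 peaks in the first 50% of the list and 46 in the last 50%. Merging also left 31 regions in the dense group, at a median spacing of 3085 bp and a median width in the window of 177 bp. The spacing was 2381 bp for peaks in the first 50% of the list but 989 bp for those in the last 50%, inside the interval, and the cause of the difference was not tested. Chaining at 2 kb, chosen after seeing the data, kept 31 peaks over 23.0 kb (31007376 to 31030368). At 5 and 20 kb the group held 60 and 74 peaks over 70.8 and 123 kb. The share of wide peaks of the window was 13.5% within the first 50% of places and 43.5% within the rest, and the cause was not tested. The rank of the window was 14 or 15. No paired analysis was possible because the list comes from 1 library. Without read depth or a replicate, the absence of a peak does not show the absence of Jun.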
